A study of Homo sapiens with 9 samples.

Results

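Small RNAs that lack a poly(A) tail were followed through poly(A)-selected RNA-seq libraries of HaCaT cells, an immortalised line of human skin keratinocytes. Members were chosen by name and by their counts. They are all gene symbols that start with SNORA, SNORD, SCARNA, RNU, RNY or RN7S, plus RMRP and RPPH1, that do not end in P and that had 10 or more counts summed over the 9 libraries. This gave 132 members out of 870 symbols with these names, 266 of which had any count, and out of 52402 symbols in the deposited table. RMRP ends in P but is named by the rule and was kept. The 9 libraries form 3 groups of 3 replicates: cells in DMEM culture medium alone (control), and cells in the same medium with polystyrene plastic fragments (fPS) at 25 µg/ml (fPS 25) or 100 µg/ml (fPS 100), all for 24 h. All groups are of 1 cell line, and the labels give no genetic change between them. Total RNA was enriched for tailed RNA on oligo(dT) beads before library preparation. Whether replicates came from separate cultures is not said in the labels, and a p-value here reflects no more than the spread between these libraries.

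Most human messenger RNAs end in a long run of adenines, and oligo(dT) beads hold them by it. The small RNAs described here end in other ways. Spliceosomal RNAs other than those of the U6 kind are cut by the Integrator complex and carry an Sm protein ring, nucleolar and Cajal body RNAs are mostly trimmed out of introns, and RN7SL, RN7SK, Y, RNase P and RNase MRP RNAs are made by RNA polymerase III and end in a few uridines. In the cell they act in splicing, in the modification and cutting of ribosomal and transfer RNA, in protein targeting and in the control of transcription. What reaches such a library is the part kept or carried over in the bead step, so their counts depend on that step as well as on the cell.

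The members were 63 H/ACA nucleolar RNAs (SNORA symbols, which mostly guide pseudouridine formation) and 31 C/D nucleolar RNAs (SNORD, which mostly guide ribose methylation). There were also 14 Cajal body RNAs (SCARNA, which guide the modification of spliceosomal RNAs), 7 major and 4 minor spliceosomal RNAs and 4 Y RNAs. The rest were 3 RNAs of the signal recognition particle (7SL), RN7SK with 3 copies of it, and the RNAs of RNase P and RNase MRP. No U1, U6 or U7 gene reached the minimum. The summed count of 10 that admitted a gene was met exactly by SCARNA26A, SNORD67, SNORD21 and SNORA37, and SNORD115@, SNORD60, SNORA5C and SNORA55 lay just outside with 9. Together the members held 0.082% of all counts, and the 5 highest held 80.1% of that. Only 43 members had 100 counts or more and 89 had fewer. Lengths in RefSeq on GRCh38.p14, to which all 132 matched, ran from 71 to 421 bases with a median of 135.

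The sequences of 3 spliceosomal members are shown because they carry the comparison of copies and the motif that follow. They are the RNA strands of GENCODE release 29 transcripts on GRCh38, written as DNA from 5′ to 3′. RNU4-2 at chr12:120291763-120291903 (minus strand) and RNU4-1 at chr12:120293097-120293237 (minus strand) encode U4, the spliceosomal RNA that pairs with U6 until the spliceosome is activated. They are 97.2% identical over 141 positions, and capitals in RNU4-1 mark the 4 bases that differ from RNU4-2.
RNU4-2: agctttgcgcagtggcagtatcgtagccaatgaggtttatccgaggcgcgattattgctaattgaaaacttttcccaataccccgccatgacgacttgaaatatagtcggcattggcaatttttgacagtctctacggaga
RNU4-1: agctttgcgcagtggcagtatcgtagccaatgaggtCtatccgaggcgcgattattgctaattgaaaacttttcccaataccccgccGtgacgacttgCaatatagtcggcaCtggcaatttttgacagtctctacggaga

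RNU2-1 at chr17:43233787-43233977 (minus strand) encodes U2, which pairs with the branch point of introns. Capitals mark the Sm motif searched for, which is A, then 5 or 6 T, then G, on the RNA strand only and taken at its first match.
RNU2-1: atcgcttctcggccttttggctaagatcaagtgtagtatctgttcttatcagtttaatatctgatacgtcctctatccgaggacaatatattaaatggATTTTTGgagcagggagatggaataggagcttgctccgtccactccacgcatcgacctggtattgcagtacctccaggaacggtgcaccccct

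This motif stood in 10 of the 11 spliceosomal RNAs and in 0 of 105 other members with a GENCODE sequence. RNU6ATAC was the 1 spliceosomal member without it. It stood in 5.56% of 2664 GENCODE transcripts of 116 to 191 bases. The match is a description of letters and was not used to choose members. Over the 116 members with a sequence, the longest run of adenines was 2 to 6 bases, with a median of 3.

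Library totals were 16.4M to 29.3M counts, so that 3 counts correspond to 0.102 to 0.183 counts in every 1000000 of the library (CPM). Keratinocyte markers (KRT5, KRT14, TP63, DSG3, DSP and ITGB4) summed to 3120 to 3900 CPM in control, 2910 to 3250 in fPS 25 and 2610 to 2990 in fPS 100. KRT5 had 1100 to 1380 CPM in fPS 100, against 1900 to 2260 in control, and KRT14 had 59.1 to 113, against 125 to 145. TP63, DSG3, DSP and ITGB4 overlapped between these groups. TP63 was at 116 to 153 CPM in fPS 100, against 95.7 to 122 in control. The 4 leukocyte markers summed to 8.29 to 9.61 CPM in control, 12 to 14 in fPS 25 and 17.4 to 18.8 in fPS 100. Nearly all of it was CD68, at 17.0 to 18.7 CPM in fPS 100, against 8.16 to 9.43 in control, while PTPRC was at 0 to 0.0609 CPM in all libraries. Over the 9 libraries, markers of fibroblasts summed to 10.3 to 15.1 CPM, of melanocytes to 1.06 to 2.25 and of endothelium to 0.82 to 2.01, with LUM and TEK at 0. The part of these markers in the other results was not tested. In the fPS 100 libraries nuclear ribosomal RNA took 60600 to 84830 CPM, and in the other 6 libraries it had no count. In the fPS 100 comparisons that follow, a difference in processing from these 6 libraries cannot be told apart from the treatment.

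The small RNAs were unequal between replicates of 1 group, and low in all 3 fPS 100 libraries. Summed over all 132 members, their level was 439.9, 714.8 and 1557 CPM in control replicates 1, 2 and 3. In fPS 25 it was 2330, 1444 and 513.5 CPM, and in fPS 100 it was 301.5, 332.7 and 375.2 CPM. The highest library exceeded the lowest of its group 3.54-fold in control, 4.54-fold in fPS 25 and 1.24-fold in fPS 100. All 3 fPS 100 libraries lay below all 6 others, while fPS 25 and control overlapped. Group means were 903.9 ± 582.1 CPM in control, 1429 ± 908.3 in fPS 25 and 336.5 ± 36.99 in fPS 100 (SD, n = 3 each). In bulk RNA of this kind, fewer cells of a type and less of an RNA per cell cannot be told apart. Carry-over of untailed RNA through the bead step was not tested.

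**Figure D1:**
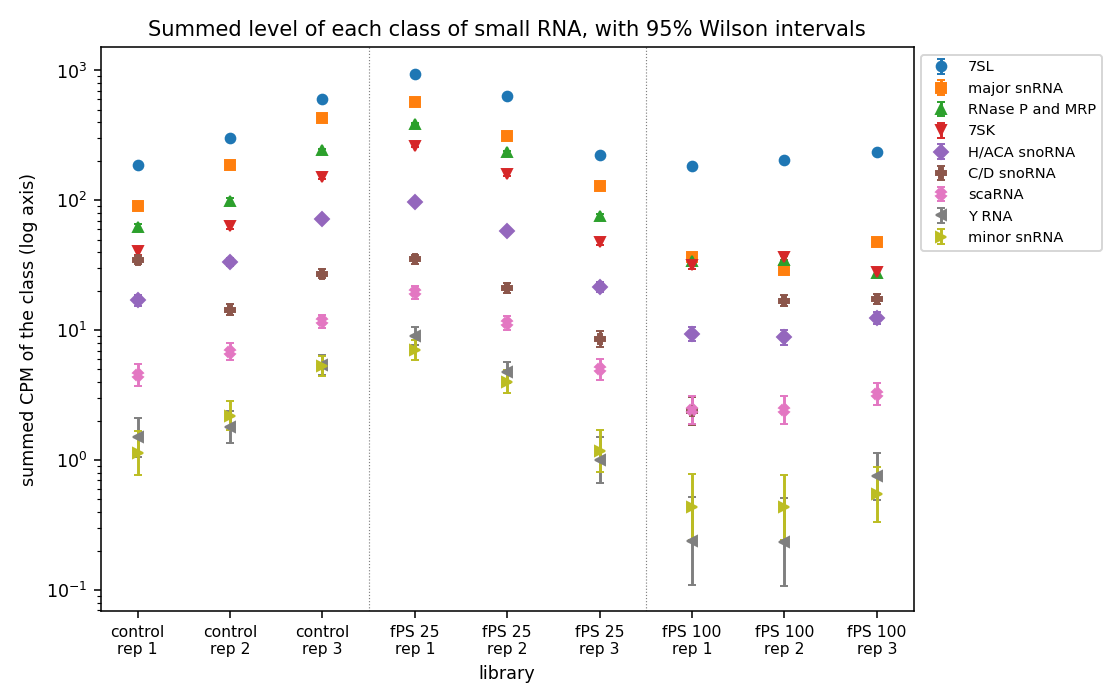
Summed CPM of each class of small RNA (log axis) in each of the 9 libraries, with points for libraries and bars for the 95% Wilson interval of counting error. Most classes go up and down together: high in control replicate 3 and fPS 25 replicates 1 and 2, and low in fPS 100, where 7SL stays highest at 183.9 to 236.7 CPM.

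The same order of libraries ran through nearly every member with enough counts to show it. Of the 43 members with 100 counts or more, 40 had their highest level in fPS 25 replicate 1. The other 13961 symbols at that depth had theirs there in 8.14% of cases. All 43 had fPS 25 replicate 1 above replicate 2 above replicate 3, against 19.6% of other symbols. In control, 40 had replicate 3 above replicate 2 above replicate 1, against 11.3% of others. Both orders held for 40 members and for 3.06% of others. Replicate numbers carry no order in time or dose, so these counts describe which libraries were high. The spread between replicates was wide beside that of other genes. The median gene-wise biological coefficient of variation was 50.9% for the 54 members tested and 12.8% over all 14637 genes tested. These sets were not matched by level, and many members had low counts.

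**Figure D2:**
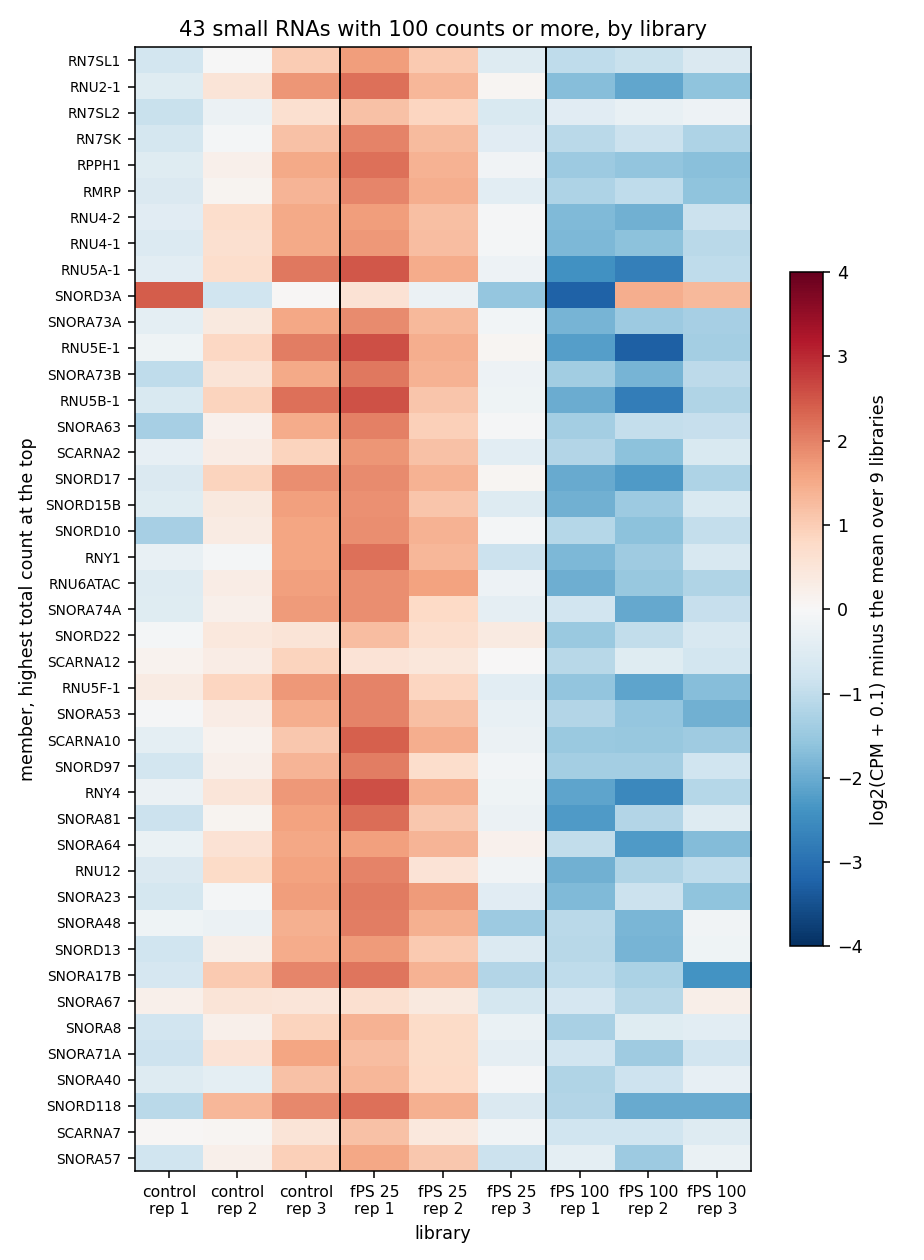
Heat map of the 43 members with 100 counts or more (rows, highest total at the top) in the 9 libraries (columns), as log2(CPM + 0.1) minus the member's mean over the libraries. Red stands for a level above that mean and blue for below. The columns for control replicate 3 and fPS 25 replicates 1 and 2 are red in nearly every row, the fPS 100 columns are blue, and SNORD3A departs from the rest.

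The RNAs of the signal recognition particle held the most counts, and of the classes theirs had the highest ratio of fPS 100 to control. They are the scaffold of that particle, which brings ribosomes making secreted proteins to the endoplasmic reticulum. RN7SL1 had 133, 218 and 449 CPM in control, 710, 453 and 155 CPM in fPS 25, and 110, 120 and 148 CPM in fPS 100. RN7SL2 had 54.3, 85.5 and 157 CPM in control, 230, 183 and 66.9 in fPS 25, and 73.8, 83.2 and 88.2 in fPS 100. For both, fPS 100 libraries overlapped with control, and neither was called: RN7SL1 was at a log2 fold change of −0.94 ± 0.60 (SE, edgeR adjusted p = 0.287) in fPS 100 against control and RN7SL2 at −0.14 ± 0.49 (adjusted p = 0.857). The copies did not keep their proportion. RN7SL2 had 0.594 to 0.696 counts for each RN7SL1 count in fPS 100, 0.324 to 0.432 in fPS 25 and 0.351 to 0.410 in control. The fPS 100 libraries did not overlap with the others in this ratio, which was not tested. Reads of near-identical copies may be divided between them in ways set by the counting, which is not given in the sources used here, so the level of each copy is uncertain.

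Other RNA polymerase III products lay lower in fPS 100 with wide replicate spread elsewhere. RN7SK, which holds the elongation kinase P-TEFb inactive, had 40.7, 63.3 and 152 CPM in control, 263, 159 and 48.2 in fPS 25, and 31.8, 36.9 and 28.2 in fPS 100. RPPH1, the catalytic RNA of RNase P, which trims the 5′ ends of transfer RNAs, had 41.0, 66.0 and 163 CPM in control, 266, 150 and 52.4 in fPS 25, and 20.9, 19.3 and 17.8 in fPS 100. RMRP, the RNA of RNase MRP, which cuts the ribosomal RNA precursor, had 20.9, 33.6 and 81.0 CPM in control, 122, 85.1 and 23.2 in fPS 25, and 13.2, 15.4 and 10.1 in fPS 100. For all 3 RNAs every fPS 100 library was below every other library, as for 20.7% of other symbols with 100 counts or more. None of the 3 was called against control. RN7SK was at −1.27 ± 0.67 (adjusted p = 0.202), RPPH1 at −2.09 ± 0.69 (adjusted p = 0.0594) and RMRP at −1.68 ± 0.69 (adjusted p = 0.114). RPPH1 followed RN7SK closely outside fPS 100, with 0.943 to 1.09 counts for each RN7SK count in fPS 25 and 1.01 to 1.07 in control, while in fPS 100 it had 0.523 to 0.656.

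Against control and against fPS 25 alike, 5 of 7 major spliceosomal RNAs were called lower in fPS 100. Over all genes tested, 14.8% and 7.43% were called lower in these comparisons. RNU2-1 had 62.2, 124 and 299 CPM in control, 407, 218 and 93.0 in fPS 25, and 26.7, 20.5 and 28.9 in fPS 100, with no overlap between fPS 100 and either other group. Its log2 fold change was −2.53 ± 0.71 in fPS 100 against control (adjusted p = 0.0350) and −3.10 ± 0.73 against fPS 25 (adjusted p = 0.0332). RNU4-2 had 10.5, 23.6 and 41.9 CPM in control, 46.2, 33.2 and 13.9 in fPS 25, and 4.2, 3.75 and 7.92 in fPS 100, and was called lower in fPS 100 against control at −2.10 ± 0.63. RNU4-1 moved with it at −2.12 ± 0.61, and its count per RNU4-2 count was 0.655 to 0.926 in fPS 100, 0.759 to 0.808 in fPS 25 and 0.717 to 0.768 in control. Against control the calls of RNU2-1, RNU4-1 and RNU4-2 were lost in 9 or 10 of 20 alternatives, and against fPS 25 that of RNU2-1 was lost in 8 of 20, with no sign reversed.

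The variants of U5, the spliceosomal RNA that holds the exons for joining, were lower in every fPS 100 library than in any control or fPS 25 library. This held for 20.7% of the other symbols with 100 counts or more. RNU5A-1 had 4.51, 9.77 and 26.1 CPM in control, 34.2, 17.0 and 5.27 in fPS 25, and 1.04, 0.829 and 2.94 in fPS 100, a difference of −2.88 ± 0.97 against control that was not called (adjusted p = 0.0621). RNU5E-1 had 3.42, 7.01 and 16.4 CPM in control, 23.4, 10.8 and 4.10 in fPS 25, and 0.759, 0.316 and 1.44 in fPS 100, and was called lower at −3.23 ± 0.89 (adjusted p = 0.0291). RNU5F-1 had 0.865, 1.30 and 2.47 CPM in control, 2.92, 1.28 and 0.479 in fPS 25, and 0.160, 0.0790 and 0.137 in fPS 100. At −3.44 ± 0.72 (adjusted p = 0.00435) it had the smallest adjusted p against control among the members named, and its call held in all 20 alternatives, while that of RNU5E-1 was lost in 8 of 20. The counts of these variants can share reads with each other. Levels on the CPM scale do not compare genes of unequal length. Per kilobase, the mean over 9 libraries was 927 CPM for RN7SL1, 756 for RNU2-1, 142 for RNU4-2, 96.6 for RNU5A-1 and 9.13 for RNU5F-1.

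The minor spliceosome, which removes the rare U12-type introns, was seen at low counts. RNU6ATAC had 0.501, 0.946 and 2.56 CPM in control, 3.04, 2.52 and 0.654 in fPS 25, and 0.120, 0.197 and 0.273 in fPS 100, which are 3 to 8 counts per library. It was lower in fPS 100 than in control at −2.57 ± 0.75 (adjusted p = 0.0235). RNU12 was at −2.54 ± 0.77 (adjusted p = 0.0288) in the same comparison. The call of RNU6ATAC was lost in 5 of 20 alternatives and that of RNU12 in 7 of 19. RNU4ATAC had 0 counts in all 3 fPS 100 libraries and 16 in all, too few to be tested.

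Of the nucleolar and Cajal body RNAs, 5 of 21 H/ACA, 4 of 9 C/D and 3 of 6 Cajal body members tested were called lower in fPS 100 against control, where 14.8% of all genes tested were called lower. SNORA73A, an H/ACA RNA needed for the release of 18S ribosomal RNA from its precursor, had 4.87, 8.59 and 18.9 CPM in control, 24.2, 16.2 and 6.01 in fPS 25, and 1.72, 2.29 and 2.53 in fPS 100. It was called lower in fPS 100 at −2.16 ± 0.61 against control (adjusted p = 0.0272), and its relative SNORA73B was at −2.01 ± 0.75 and not called (adjusted p = 0.0795). SNORD17, a guide of ribosomal RNA methylation, had 0.592, 1.81 and 3.69 CPM in control, 3.77, 2.61 and 1.00 in fPS 25, and 0.160, 0.118 and 0.342 in fPS 100, a change of −3.10 ± 0.74 (adjusted p = 0.00864). Of the pseudouridine guides, SNORA64 was called at −2.92 ± 0.70 (adjusted p = 0.00876), SNORA53 at −2.65 ± 0.71 (adjusted p = 0.0159) and SNORA17B, with 7 counts over the fPS 100 libraries, at −3.38 ± 1.10 (adjusted p = 0.0377). SCARNA12, which modifies U5, had 1.09, 1.22 and 1.91 CPM in control, 1.46, 1.37 and 1.00 in fPS 25, and 0.400, 0.671 and 0.547 in fPS 100. It had a narrow spread within groups, and fell by 1.25 ± 0.31 (adjusted p = 0.0120). SCARNA2, which modifies U2, was at −1.39 ± 0.53 (adjusted p = 0.0694). Against control, the calls of SNORD17, SNORA64 and SCARNA12 held in all 20 alternatives, while that of SNORA73A was lost in 9 of 20, that of SNORA17B in 10 of 19 and that of SNORA53 in 2 of 20.

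The largest fitted changes rested on a handful of counts. SNORD118, the U8 RNA needed to cut the precursor of 28S ribosomal RNA, had 2, 0 and 0 counts in fPS 100, against 2, 23 and 33 in control. The pooled CPM was 0.0305 times that of control, with a 95% exact counting interval of 0.0036 to 0.115. Control replicate 1 was as low as an fPS 100 library in counts. SCARNA13 had 0, 0 and 1 counts in fPS 100, against 3, 12 and 13 in control, a ratio of 0.0316 (0.000772 to 0.191). RNY4, a Y RNA bound by the Ro protein, had 1, 0 and 5 counts in fPS 100, against 9, 19 and 44 in control, and was called lower at −3.55 ± 1.04 (adjusted p = 0.0242). RNY5 had 1, 0 and 2 counts in fPS 100, against 5, 7 and 18 in control, and was not called in that comparison (adjusted p = 0.0525). RNY1, the most counted Y RNA, had 4, 6 and 14 counts in fPS 100, against 14, 19 and 60 in control, and was not called (−1.99 ± 0.84, adjusted p = 0.0996). Of the copies of RN7SK, RN7SKP203 had 4, 1 and 3 counts in fPS 100, against 2, 15 and 21 in control, and was called lower at −2.23 ± 0.75 (adjusted p = 0.0436), and RN7SKP255 had 28 counts in all 9 libraries. Against control, the call of RN7SKP203 was lost in 11 of 18 alternatives, that of SNORD118 in 6 of 18 and that of RNY4 in 4 of 20, and that of SCARNA13 held in all 18. These intervals cover counting error only.

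SNORD3A stood apart from all other abundant members. It is the U3 RNA, which starts the cutting of the ribosomal RNA precursor, and had 29.6, 3.07 and 5.56 CPM in control, 8.16, 4.57 and 1.79 in fPS 25, and 0.480, 14.96 and 13.3 in fPS 100. Control replicate 1 and fPS 100 replicates 2 and 3 were high, which are libraries where the other small RNAs were low. For each SNORA73A count it had 6.07 counts in control replicate 1, 6.53 and 5.24 in fPS 100 replicates 2 and 3, and 0.279 to 0.358 in the other 6 libraries. It differed between no pair of groups beyond its spread, at −0.25 ± 1.2 in fPS 100 against control (adjusted p = 0.898). It set the C/D class as a whole: the summed C/D level in fPS 100 was 0.480 times that in control with SNORD3A and 0.209 times without it. The RefSeq RNA of SNORD3A has 217 bases, and no single GENCODE transcript sequence was taken for it. Other SNORD3 members did not share its high libraries. SNORD3C, SNORD3B-1 and SNORD3B-2 had 3 counts each in control replicate 1, against 649 for SNORD3A. In fPS 100 replicate 2 they had 6, 1 and 0 counts, against 379 for SNORD3A. How reads were divided among these genes, and which were counted to SNORD3A, was not tested.

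Counting over the members, the comparison of fPS 100 with control called 21 lower, where 14.8% of all genes tested were called lower, and 0 higher, where 15.2% of all genes were called higher. No member reached an unadjusted p under 0.05 in the higher direction, and 37 did in the lower. The share of all genes at that threshold was not counted. A filter on low counts let 54 of the 132 members into the test, and a member could pass it through its high libraries alone, so these counts are no share of all members. All 54 had a negative estimate, with a median log2 fold change of −2.0 beside 0.01 over all genes. For 35 of them every fPS 100 library was below every control library, where 29.7% of all genes were. By class, 5 of 7 major spliceosomal RNAs were called, 2 of 2 minor ones, 5 of 21 H/ACA, 4 of 9 C/D, 3 of 6 Cajal body, 1 of 3 Y RNAs, RN7SKP203, and neither 7SL, RN7SK, RPPH1 nor RMRP. The number called depended on single libraries: it was 6 without control replicate 3, 7 without fPS 100 replicate 1 or 2, 9 without control replicate 2, 33 without control replicate 1 and 36 without fPS 25 replicate 3, with 55 to 64 members tested. It was 11 with replicate number as a block, 9 with limma-voom and 36 with DESeq2. Of all 14637 genes, 1748, 2184 and 2259 were called lower in these settings, in the same order.

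The comparison of fPS 25 with control called 0 members higher and 0 lower, where 3.0% and 2.25% of all genes tested were called. By edgeR 1 member reached an unadjusted p under 0.05, in the higher direction, with the share of all genes not counted. Estimates were positive for 49 of 54, with a median of 0.56 beside −0.01 over all genes, and SCARNA10, which modifies U5, was at 1.19 ± 0.57 (adjusted p = 0.267). The median was 0.04 without fPS 25 replicate 1, the library with the most small RNA, and 1.21 without control replicate 3. No member had all fPS 25 libraries above or below all control libraries, where 15.9% and 17.7% of all genes did.

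The comparison of fPS 100 with fPS 25 called 27 lower, where 7.43% of all genes tested were, and 0 higher, where 6.31% were. It shares its fPS 100 libraries with the comparison against control. At an unadjusted p under 0.05 there were 49 lower and 0 higher, with the share of all genes not counted. Every fPS 100 library was below every fPS 25 library for 42 members and above for 0, where 28.4% and 9.86% of all genes were. SCARNA10 had 0.160, 0.158 and 0.171 CPM in fPS 100, against 3.77, 1.88 and 0.523 in fPS 25, and was called at −3.44 ± 0.72 (adjusted p = 0.00869). SNORA23 was at −3.29 ± 0.89 (adjusted p = 0.0305), a call lost in 8 of 19 alternatives, and RNY5 at 3 counts in fPS 100, against 44 in fPS 25, a ratio of 0.0537 (95% exact counting interval 0.0107 to 0.168). The number called was 7 without fPS 25 replicate 1, 8 without fPS 25 replicate 2, 9 and 10 without fPS 100 replicate 1 and 2, 15 without control replicate 2 and 43 without fPS 25 replicate 3.

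The make-up of the small RNA also differed at 100 µg/ml. The 3 RNAs of the signal recognition particle took 41.3 ± 2.06% of small RNA counts in control, 42.5 ± 1.92% in fPS 25 and 61.7 ± 1.21% in fPS 100 (SD, n = 3 each). Major spliceosomal RNAs took 24.9 ± 3.76%, 23.8 ± 1.90% and 11.2 ± 2.12% in the same order of groups. RNase P and MRP RNAs took 14.6 ± 0.949% in control, 15.9 ± 1.02% in fPS 25 and 9.72 ± 2.03% in fPS 100. RN7SK kept a like share, at 9.28 ± 0.445% in control, 10.6 ± 1.03% in fPS 25 and 9.72 ± 1.93% in fPS 100. The fPS 100 shares of 7SL, major and minor spliceosomal, RNase P and MRP, and H/ACA RNAs did not overlap with those of either other group. Shares in a library add up to 100%, so a higher share of 7SL lowers those of other classes. Within control and fPS 25 the 7SL share stayed within 38.9 to 44.0% while the sum varied. As ratios of mean summed CPM in fPS 100 to control, 7SL was at 0.568, RN7SK at 0.379, Cajal body RNAs at 0.352, H/ACA RNAs at 0.249, RNase P and MRP RNAs at 0.239, minor spliceosomal RNAs at 0.164, major ones at 0.160 and Y RNAs at 0.140.

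**Figure D3:**
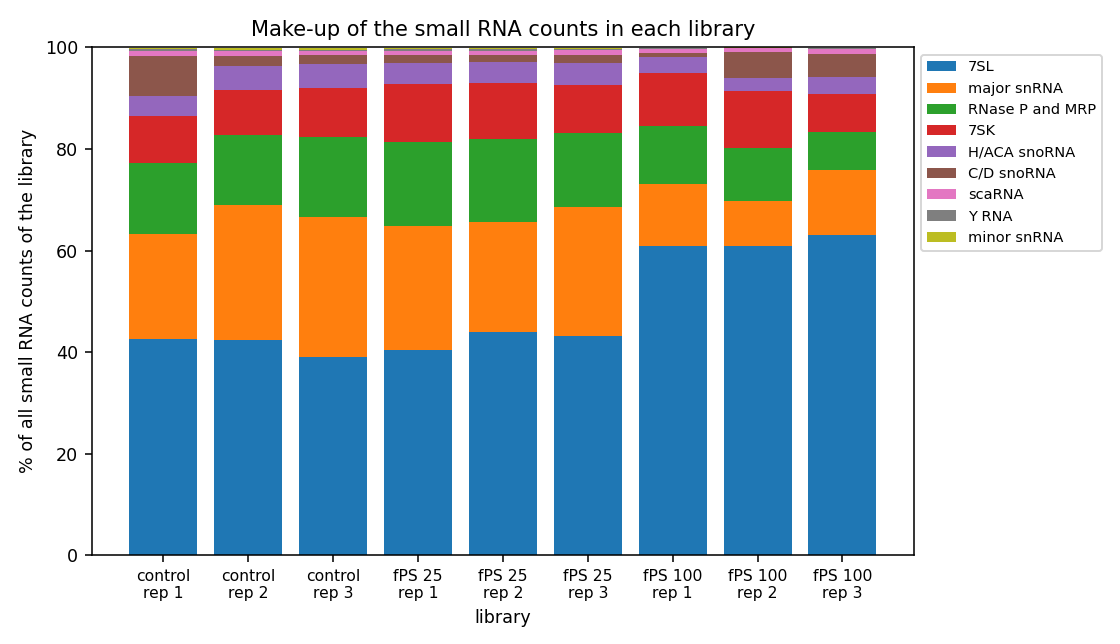
Share of each class in all small RNA counts of a library, in percent, stacked for the 9 libraries; the 3 copies of RN7SK are left out. The 6 control and fPS 25 bars have 7SL at 38.9 to 44.0%, with a C/D share of 7.92% in control replicate 1, and the 3 fPS 100 bars have 7SL at 61.0 to 63.1% and less of the major spliceosomal RNAs.

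Most nucleolar and Cajal body RNAs lie inside other genes, whose spliced RNA is tailed. In GENCODE release 29, 41 of these members lay in introns alone of a gene on their strand and 52 overlapped an exon of some transcript of it, while 5 lay outside and 10 had no entry. For 31 members both the member and its host could be tested, over 23 hosts. A member could pass the filter on low counts through its high libraries alone, so these 31 do not stand for all hosted members. In fPS 100 against control the members' median log2 fold change was −2.0 and that of their hosts −0.26, with hosts ranging from −1.15 to 0.71, and each of the 31 members was below its host. SNORA63 and SNORA81 lie in EIF4A2, which encodes an RNA helicase of the translation factor family and was called higher at 0.71 (adjusted p = 1.86e-04), while SNORA63 was at −1.53 and SNORA81 at −2.0, neither called. SNORA73A lies in SNHG3, which had 50.1, 38.5 and 40.2 CPM in fPS 100, against 54.4, 49.5 and 42.5 in control, and was at −0.07 (adjusted p = 0.725).

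Some hosts were lower too. SCARNA10 lies in NCAPD2, a condensin subunit, which had 126, 125 and 91.3 CPM in fPS 100, against 275, 257 and 289 in control (log2 fold change −1.15, adjusted p = 2.92e-05), where SCARNA10 was at −2.24 (adjusted p = 0.0459), a call lost in 10 of 20 alternatives. SNX5, host of SNORD17, was at −0.41 (adjusted p = 0.00223), SNHG1, host of SNORD22, at −0.55 (adjusted p = 0.00180), and PHB2, host of SCARNA12, at −0.50 (adjusted p = 0.00319). In fPS 25 against control the medians were 0.54 for the members and −0.10 for the hosts, and 1 of 31 members was below its host. A member and its host lie on the same strand here, so in these counts reads of a member and of the host exon or intron around it cannot be told apart.

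**Figure D4:**
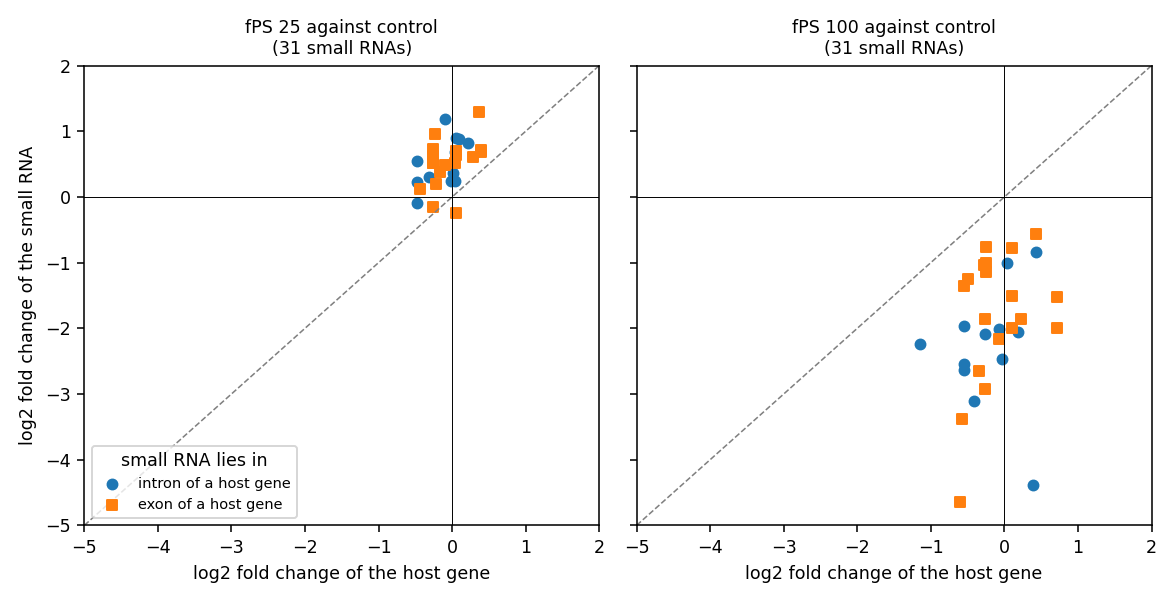
Log2 fold change of 31 small RNAs (vertical) against that of the gene they lie in (horizontal), for fPS 25 against control (left) and fPS 100 against control (right); squares overlap a host exon, circles lie in host introns, and the dashed line marks equal change. In fPS 100 all 31 points are below the line and hosts stay between −1.15 and 0.71, while in fPS 25 all but 1 lie above it. Only members that passed the filter on low counts are shown.

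Some proteins that make, bind or trim these RNAs were called as well. In fPS 100 against control, 5 of 14 Integrator subunits were called lower and 0 higher, led by INTS14 at −0.50 ± 0.07 (adjusted p = 5.10e-04). Of 27 proteins of the Sm core, the SMN complex and the spliceosomal particles, 6 were lower and 1 higher, with SNRPC, a U1 protein, at −0.41 ± 0.09 and LSM4 at −0.56 ± 0.13. Over all genes tested 14.8% were called lower and 15.2% higher, and the counts of these short lists are given without a test against that. Of 17 nucleolar particle proteins 3 were lower and 1 higher: TCOF1, which acts in ribosomal RNA transcription, fell by 1.21 ± 0.12 (adjusted p = 4.38e-05), and ZNHIT6, an assembly factor, rose by 0.49 ± 0.11. Of 11 RNase P and MRP proteins 3 were lower, among them RPP30 at −0.76 ± 0.09.

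Partners of the RNA polymerase III products gave calls in both directions, beside 14.8% lower and 15.2% higher over all genes tested. Of 8 signal recognition particle proteins SRP68 was higher at 0.41 ± 0.11 and SRP54 lower at −0.26 ± 0.09. Of 9 proteins of the 7SK particle and P-TEFb, MEPCE, which caps RN7SK, was lower at −0.51 ± 0.08, HEXIM2 lower at −0.88 ± 0.17 and CCNT2 higher at 0.44 ± 0.14. The 4 La and Ro proteins gave 0 calls. RNA polymerase III and the SNAPc factor gave 2 lower and 3 higher of 26, with BRF2, a factor for RNU6 and RN7SK genes, at −0.73 ± 0.12.

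Genes of 3′ end formation were called in both directions. Of 22 factors of trimming, oligoadenylation and the nuclear exosome, 5 were lower and 1 higher in fPS 100 against control, with EXOSC8, an exosome subunit, at −1.11 ± 0.13 and TOE1, a deadenylase that trims spliceosomal RNAs, at −0.99 ± 0.15. Of 16 genes of the nuclear poly(A) machinery 7 were lower and 2 higher, with CPSF1 at −0.58 ± 0.08 and CPSF4 at 0.69 ± 0.08. Of 25 host genes listed for nucleolar RNAs 9 were lower and 2 higher, where 14.8% and 15.2% of all genes tested were called in these directions. In fPS 25 against control each of these 11 lists had at most 2 calls, among them ZNHIT6 at 0.63 ± 0.11 and CPSF4 at 0.79 ± 0.08. These are levels of tailed messenger RNA and were not related to the small RNAs by a test.

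The deposited log2 values give the same members a different weight. They are, per the values, log2 of 1 plus a quantity scaled for length and depth whose kind is not given. In fPS 25 replicate 1, the reads behind 1 unit of that quantity ran from 0.00729 for RNY4, at 96 bases, to 5.44 for SCARNA2, at 420 bases, over 35 members with 30 reads or more. RNY4 stood at 12.93 on the deposited log2 scale from 57 reads, above GAPDH, a glycolytic enzyme, at 11.63 from 81515 reads. RNU2-1 was at 12.83 and RN7SL1 at 11.94 in that library. The members held 6.82% of the sum of the unlogged values there and 0.233% of its counts. On that scale RN7SL2 was at 0.06 in fPS 100 against control, the opposite sign to the counts.

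**Figure D5:**
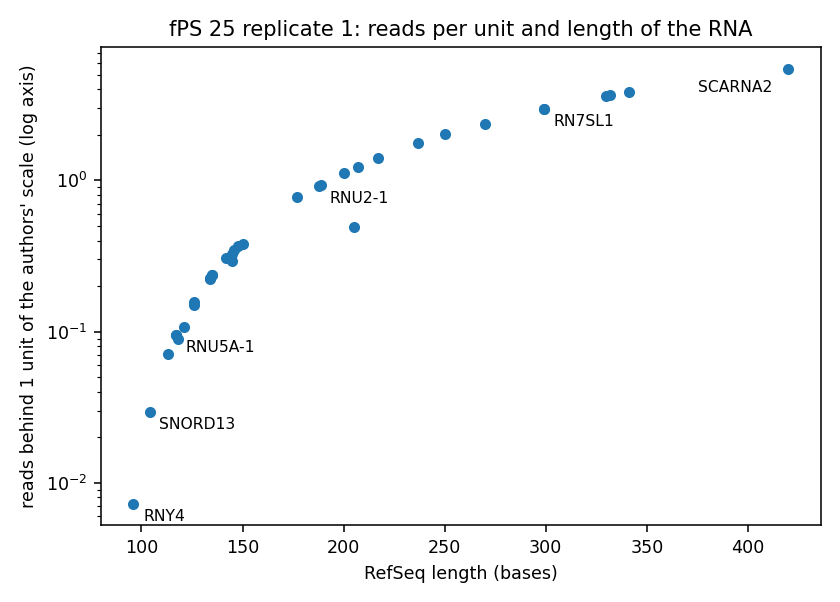
Reads behind 1 unit of the deposited unlogged scale in fPS 25 replicate 1 (vertical, log axis) against RefSeq length in bases (horizontal), 1 point for each of 35 members with 30 reads or more. The value climbs with length from 0.00729 for RNY4 to 5.44 for SCARNA2.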

How the data were processed

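HaCaT RNA was poly(A)-selected with a NEBNext module, and libraries were prepared with a NEBNext Ultra II kit, per the labels' protocols. The authors' deposited series table holds read counts per gene row, with no normalization. Their deposited files per sample hold log2 values scaled for length and depth. Per the submitters' processing notes, bcl2fastq and GRCh38.p14 were used; for the aligner, counter, annotation and strandedness, the name is not given in the sources used here. Rows of a symbol were summed. The members and lists were chosen with earlier results of these data known.

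Counts were fitted for all 9 libraries with edgeR 4.0.16 (R 4.3.3), filterByExpr (minimum count 10, minimum total 15), TMM scaling and the robust quasi-likelihood test, 2-sided, over 14637 genes, with Benjamini-Hochberg adjustment over all of them and calls at an adjusted p under 0.05. The standard error (SE) of a log2 fold change is its size over the square root of F. CPM are not TMM-scaled. Totals of 16.4M to 29.3M counts set the precision, and intervals cover counting error only.

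The text names the 10 members with the highest mean CPM, the 2 highest of each class, the up to 10 largest called changes per comparison and direction, the up to 5 with the largest ratio of the highest library to the next, up to 3 called genes per partner list, and hosts. SNORD22, SNORD3C, SNORD3B-1, SNORD3B-2, SNORA63, SNORA81 and RNU4ATAC were added after their values were seen. Places and sequences came from GENCODE release 29 and lengths from RefSeq, and the sequences of other members are not reported here. Alternatives were RLE and upper-quartile scaling, other filters, a non-robust fit, limma-voom 3.58.1, DESeq2 1.42.0, the compared groups alone, a replicate block, the deposited log2 values and each library left out. Removing ribosomal RNA genes was added after seeing the data. The fit was tested on simulated counts with a biological coefficient of variation of 13.6% for every gene. The members tested had a median of 50.9%, so that test does not cover their spread.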

Additional observations from a re-analysis of the deposited data

Results flagged for a closer look

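Nuclear ribosomal RNA, which also lacks a poly(A) tail, was counted in fPS 100 alone. RNA28S5, RNA18S5, RNA45S5 and RNA5-8S5 together had 60600 CPM in the lowest fPS 100 library and 82700 and 84830 CPM in the others, against 0 in all control and all fPS 25 libraries. It stands out as a signal outside the 132 members, with no count in any control library. Its counts are part of the library totals behind each CPM. The small RNAs did not share this direction: their summed level was 301.5 to 375.2 CPM in fPS 100, against 439.9 to 1557 CPM in control. Removing the ribosomal RNA genes left the median log2 fold change of the tested members at −2.0 in fPS 100 against control. Whether the reads of these genes were counted alike in all libraries is not given in the sources used here. Since the counts of 0 follow the groups, a difference in counting cannot be told apart from the treatment.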

How the results depend on the processing

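Over all alternatives, 123 summary values stayed within their limits and 24 moved. The limit was a set fold of the main count of calls, or the SD of the group for a summed level. A mean with 1 library left out cannot pass that SD, and many main counts of calls were 0. The 123 is therefore no measure of stability. Members called lower in fPS 100 against control (21) were 40 of 132 with no filter on low counts, 9 with limma-voom, 36 with DESeq2, 9 on the deposited log2 values and 6 to 36 with 1 library left out. Over all genes these were 2187 of 31930 with no filter, and of 14637, 2184 with limma-voom, 2259 with DESeq2 and 1901 on the deposited values. Members called lower against fPS 25 (27) were 48 with no filter, 12 with limma-voom, 42 with DESeq2 and 7 to 43 with 1 library left out. Over all genes these were 1226 of 31930 with no filter, and of 14637, 1052 with limma-voom and 1288 with DESeq2. With replicate number as a block the counts of members called lower were 11 and 10. The labels do not say whether replicate numbers pair the libraries. None of 9 pairs of the same number correlated above 0.1 (−0.389 to 0.032), which cannot settle whether they do. Without a filter, fPS 25 against control had 1 member higher and 1 lower. The count of higher calls stayed at 0 in the other 2 comparisons under every alternative run. The summed small RNA level, fPS 100, was 103.4 CPM without the 3 highest members. With 1 library left out, mean summed levels were 317.1 to 353.9 CPM in fPS 100, 978.9 to 1887 in fPS 25 and 577.3 to 1136 in control.

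Of the values of single members, 1053 kept their direction and side of the threshold, 269 lost the call, 30 gained it and 8 reversed, none of them called. With 1 library left out, RN7SL2 in fPS 100 against control ranged from −0.43 to 0.33, and in fPS 25 against control RNU2-1 ranged from −0.05 to 1.32, RNU4-1 to 0.93, RNU4-2 to 0.82 and RNU5A-1 to 1.34. RN7SL2 in fPS 100 against control was at 0.06 on the deposited log2 values and 0.33 without control replicate 3. In fPS 25 against control without fPS 25 replicate 1, RNU2-1 and RNU4-1 were at −0.05, RNU4-2 at −0.10 and RNU5A-1 at −0.26; without control replicate 1, RNU4-1 was at −0.01 and RNU4-2 at −0.08. The cause was not tested. Depth limits 89 members with under 100 counts in all.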

Other observations

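Other short or unusual RNAs that are not members gave the following values. TERC, the RNA of telomerase, had 0.200, 0.474 and 0.273 CPM in fPS 100, against 0.501, 1.22 and 1.43 in control, and was called lower at −1.61 ± 0.51 (SE, edgeR adjusted p = 0.0332). BCYRN1, a brain cytoplasmic RNA made by RNA polymerase III, had 0.360, 0.434 and 0.957 CPM in fPS 100, against 1.78, 1.93 and 1.22 in control (−1.33 ± 0.40, adjusted p = 0.0262). In fPS 25 BCYRN1 had 0.852, 1.03 and 0.567 CPM, so its level was not high in the libraries where the small RNAs were highest. VTRNA1-1, a vault RNA, had 0 counts in all 3 fPS 100 libraries and 29 in all 9.

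Histone genes under HIST symbols, whose main messenger RNAs end in a stem-loop in place of a tail, overlapped between fPS 100 and control. The 72 symbols with counts summed to 134, 165 and 206 CPM in control, 284, 233 and 160 in fPS 25, and 219, 212 and 152 in fPS 100. Within control and fPS 25 the order of libraries was that of the small RNAs, with a narrower range. Symbols excluded for ending in P, 192 of which had counts, summed to 9.34, 15.3 and 25.1 CPM in control, 30.1, 20.2 and 11.5 in fPS 25, and 9.07, 9.79 and 10.2 in fPS 100.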
